A study of Mus musculus with 9 samples.

Results

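The mitochondrial carrier genes of the Slc25 family were examined in mouse liver RNA-seq libraries from a model of alcoholic fatty liver. Members were taken as every gene ID of the deposited table whose symbol is Slc25a followed by a number. This gave 47 genes of the 31964 gene IDs in the table, and each member had a line of its own. According to the series text, animals of the NIAAA model were fed a liquid diet with alcohol, with or without magnesium isoglycyrrhizinate (MgIG), a salt of a licorice-derived compound used as a liver-protecting drug. The 9 libraries fall into 3 groups by the letters of their titles, C, A-C and M, with 3 libraries each, and the labels do not spell out what the letters stand for. They also give no dose, time, age or sex, and they do not state that each library is a separate animal. The p-values thus measure the spread between these libraries, which may be technical. Tissue is given as liver and cell type as hepatocyte for every library, and the strain as C57BL6J, except for C replicate 4, whose label reads C57BL7J.

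Slc25 proteins sit mostly in the inner mitochondrial membrane and exchange metabolites between the matrix and the cytosol. Each is built from repeats of the same fold, and each repeat carries a short signature that begins with a proline and holds an acidic and a basic residue. In liver they are known for supplying ATP to the cytosol, moving reducing equivalents through the malate-aspartate shuttle, exporting citrate for fatty acid synthesis, bringing in acylcarnitines for oxidation and linking the steps of the urea cycle across the membrane.

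The deposited values are TPM, a transcript abundance normalised for gene length and for the total of the library, so levels can be compared between genes. They were divided here by a TMM-based divisor for each library, and levels below are this scaled TPM. Without the divisors the median gene was higher than in C by 0.22 in A-C and 0.27 in M on the log2 scale. With them it was higher by 0.03 and 0.05. The reads behind the values numbered between 45597163 and 65165613 per library, and the C libraries, at 45597163 to 46631110, had fewer than all others. Hepatocyte transcripts were abundant in every library, with Alb between 45294 and 84164. Muscle markers summed to between 1.42 and 2.61, and Ucp1, which defines brown fat, was at 0 in all 9 libraries. Cidea and Adipoq, on the same brown fat list, were under 1 throughout, while Cox7a1, a muscle and heart form of a respiratory chain subunit, fell from 11.3 ± 1.58 in C to 2.92 ± 1.72 in A-C (limma, adjusted p = 0.0138) and to 4.45 ± 1.06 in M (adjusted p = 0.0463). Inflammation was uneven within A-C and within M: 15 acute phase genes took 1.41% to 1.77% of all TPM in C, 2.5%, 7.27% and 19.4% in replicates 6, 9 and 12 of A-C, while M replicates 24, 26 and 27 had 3.11%, 14.4% and 10.6%. C replicate 2 stood apart by the 13 mitochondrially encoded mRNAs, which took 27.6% of its TPM against 12% to 15.4% in the other libraries.

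The family as a whole took between 0.197% and 0.292% of TPM. Levels spanned a wide range: 5 members had a mean of at least 100 over the 9 libraries, 19 lay between 10 and 100, 12 between 1 and 10, and 11 under 1. The 3 most abundant, Slc25a5, Slc25a47 and Slc25a39, supplied 48.2% to 57.9% of the family's TPM, and the leading 8, which also include Slc25a1, Slc25a3, Slc25a13, Slc25a10 and Slc25a15, supplied 72.6% to 77.1%. A filter of at least 1 TPM, before the TMM scaling, in at least 3 of the 9 libraries kept 36 members, and the other 11 were not tested. Slc25a14, Slc25a32 and Slc25a27 passed it with 6, 5 and 3 libraries at or above 1 TPM. None of those libraries was from C for Slc25a14 and Slc25a32, so these genes entered the tests through the groups where they were higher. For Slc25a27 none was from M, the group where it was lowest.

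**Figure D1:**
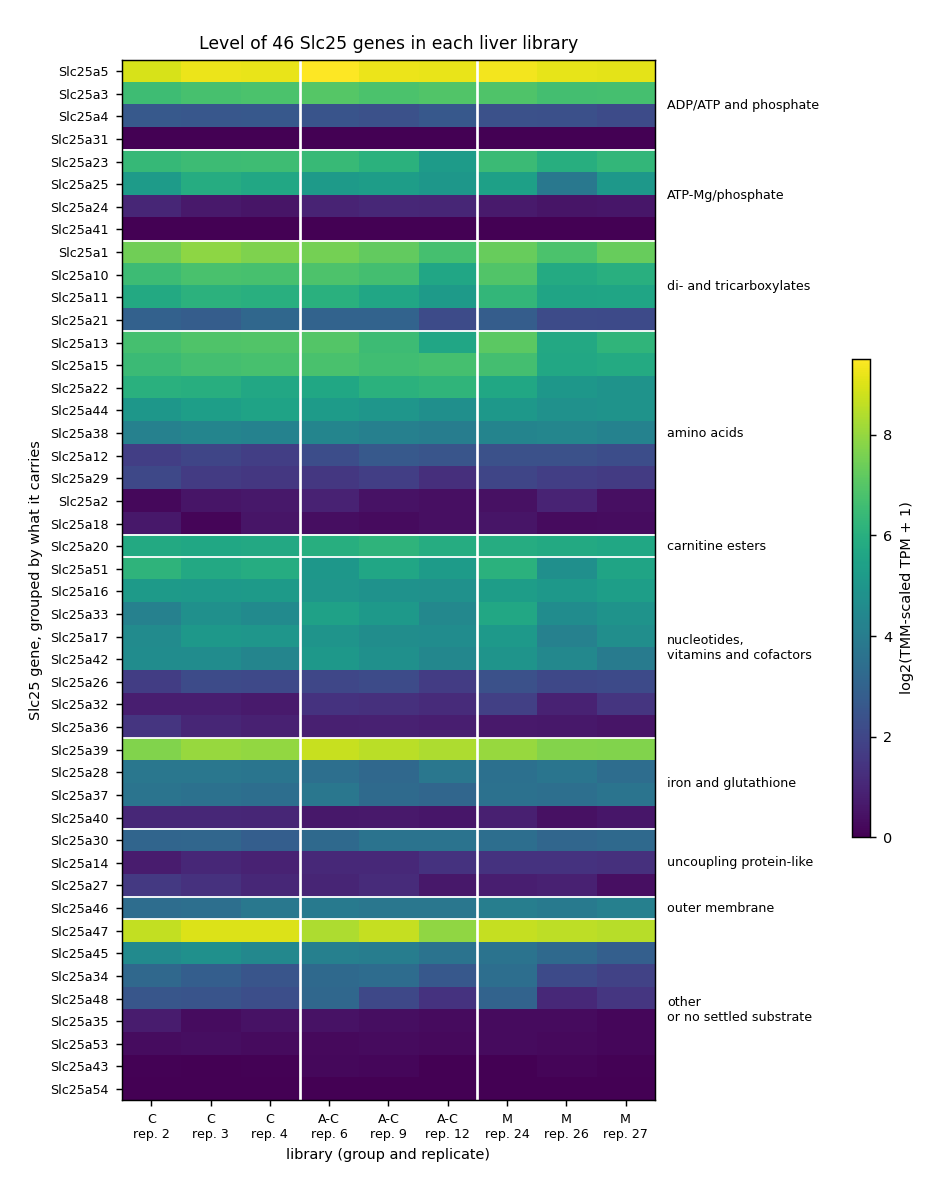
Levels of 46 Slc25 genes (rows, grouped by what they carry and ordered by mean level within a group) in the 9 libraries (columns, white lines between C, A-C and M), as log2(TMM-scaled TPM + 1) by colour. Slc25a5, Slc25a47 and Slc25a39 are the brightest rows in every library, and Slc25a31, Slc25a41 and Slc25a54 are at 0 throughout.

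Tests were made with limma on log2(scaled TPM + 1) over all 11086 genes that passed the filter, and an adjusted p under 0.05 after Benjamini-Hochberg correction over those genes was called a change. On this scale the change of genes with low values is understated. Between A-C and C, 2 of 36 members were higher, Slc25a12 and Slc25a39, and 0 were lower, which is 5.56% of the members. Among all tested genes 9.65% were called higher and 7.17% lower, 16.8% in all. Between M and C, 3 members were higher (Slc25a12, Slc25a46 and Slc25a14) and 1 was lower (Slc25a45), which is 11.1% of the members. Slc25a14 is among them although it entered the test only through A-C and M libraries, and without the filter it was not called (adjusted p = 0.0736). Among all tested genes 9.29% were called higher and 6.77% lower, 16.1% in all. Between M and A-C no member was called by limma, where 0.0361% of all genes were called higher and 0.135% lower (0.171% in all), and 5 of 36 members had an unadjusted p under 0.05, as did 1277 of the 11086 genes. A-C and M are both compared with the same C libraries. With these settings 5.56% and 11.1% of members were called in the comparisons with C, against 16.8% and 16.1% of all tested genes. The counts of members are small, and no reading about the family is drawn from them. The 3 members higher in M had adjusted p-values of 0.0465 to 0.0498 (limma). The shares of all tested genes are also the background for the lists of other genes below. The counts depended on the settings. In TPM as deposited 6 of the 36 members were called higher in A-C than in C, and 5 higher and 1 lower in M than in C. On that scale the median over all tested genes was also higher, by 0.22 in A-C and 0.27 in M. The share of all genes called there was not recorded, so these counts have no background and cannot be set against the shares above.

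The median change over the 36 members was -0.14 on the log2 scale between A-C and C, where the median over all tested genes was 0.03. Between M and C it was -0.17, against 0.05 over all tested genes. In both comparisons 15 members lay above 0 and 21 below. These signs depend on the scaling: in TPM as deposited the members' median was 0.07 in A-C and 0.10 in M, with 20 and 21 members above 0, below the medians of 0.22 and 0.27 of all genes on that scale. The values of the 3 libraries of each group did not overlap for 10 members between A-C and C (27.8%), 7 of them higher and 3 lower. Among all tested genes the share was 41.2%, with 22.7% higher and 18.4% lower. Between M and C it was 11 members (30.6%), 5 higher and 6 lower, against 41.6% of all genes, 23.7% higher and 17.9% lower. Between M and A-C it was 3 members (8.33%), 1 higher and 2 lower, against 16.2% of all genes, 7.7% higher and 8.49% lower. The counts against C include Slc25a14 and Slc25a32, higher in A-C and in M, and Slc25a27, lower in M. These genes passed the filter only through libraries of the groups where they were higher.

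**Figure D2:**
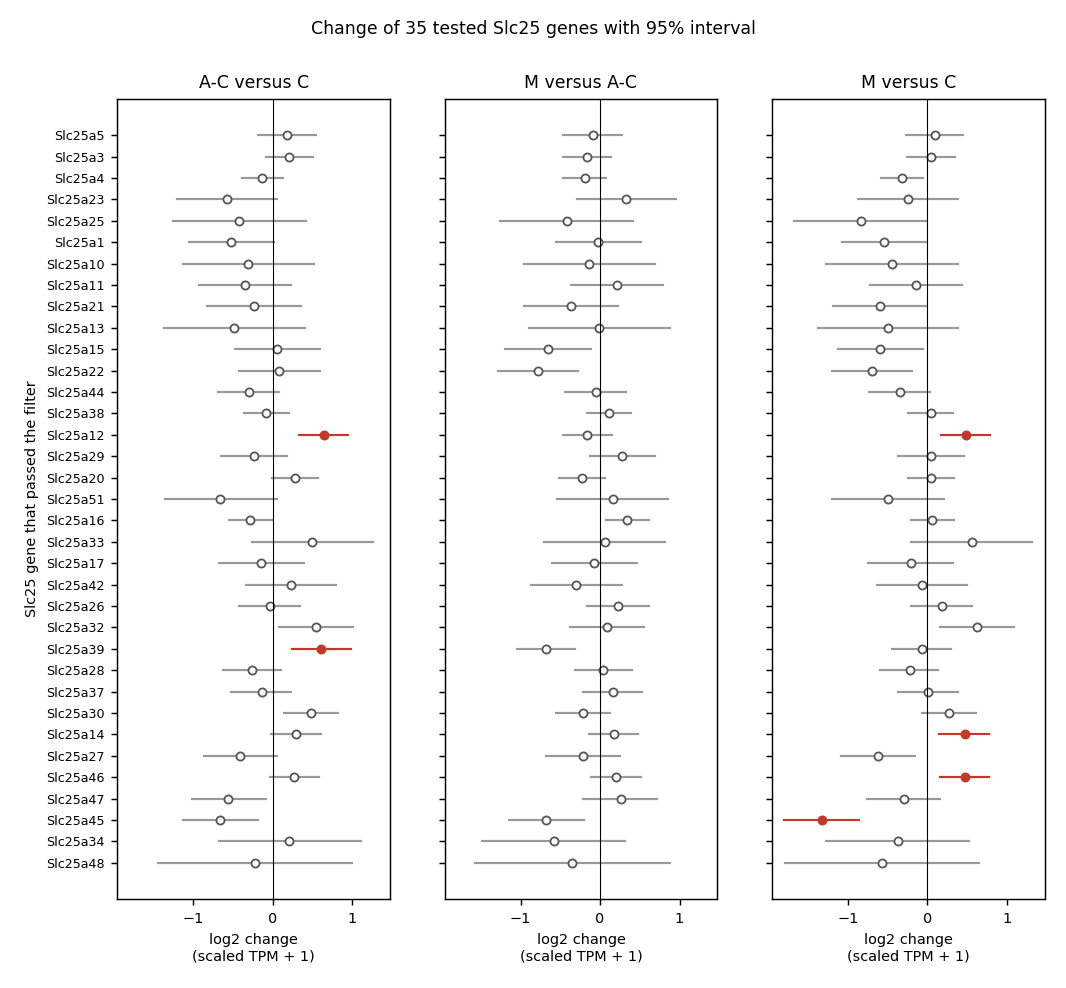
Log2 change of scaled TPM + 1 (horizontal axis) with its 95% interval for 35 tested Slc25 genes (vertical axis) in 3 comparisons; filled red points have an adjusted p under 0.05. Slc25a45 between M and C is the farthest from 0, at -1.33, and the middle panel has no filled point.

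Slc25a12 and Slc25a13 encode the pair of calcium-regulated aspartate-glutamate carriers of the malate-aspartate shuttle. Slc25a13 is the form typical of liver and Slc25a12 that of muscle and brain. Their genes lie on chromosome 2 (71271063 to 71367749, minus strand) and chromosome 6 (6041218 to 6217173, minus strand) of the mm10 build. Slc25a12 was low in C, at 2.40, 2.97 and 2.36 in replicates 2, 3 and 4. Replicates 6, 9 and 12 of A-C measured 3.73, 5.37 and 4.69, while M replicates 24, 26 and 27 measured 4.11, 4.08 and 3.72. Every A-C and M library lay above every C library. The log2 change was 0.64 ± 0.14 (SE) between A-C and C (limma, adjusted p = 0.0187) and 0.48 ± 0.14 between M and C (adjusted p = 0.0465), with 3 libraries per group. The A-C call was lost on leaving out any library of C, or replicate 9 of A-C, with adjusted p-values up to 0.0788, and the M call on leaving out any C or M library, or replicate 9 of A-C, up to 0.118.

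Slc25a13 was far more abundant than its paralog, with a mean of 115 ± 9.71 (SD, n = 3) in C, 87.4 ± 37.6 in A-C, with 87.4 ± 43.5 in M. Replicates 6, 9 and 12 of A-C measured 123, 90.9 and 48.2, and M replicates 24, 26 and 27 measured 136, 52.5 and 73.7, against 104, 119 and 122 in C. The A-C and M libraries straddled the C range, and neither difference passed the test (log2 change -0.49 ± 0.39 with adjusted p = 0.401 for A-C, and -0.50 ± 0.39 with adjusted p = 0.387 for M). The genes that work beside these carriers in the malate-aspartate and glycerol phosphate shuttles (6 listed) held 0 called members in any comparison by limma. Between A-C and C, M and A-C, and M and C, 1, 0 and 1 of this list had an unadjusted p under 0.05. Over all 11086 tested genes the counts were 3899, 1277 and 3887. Got1, the cytosolic aspartate aminotransferase, had the widest difference of that list, from 247 ± 76.4 in C to 105 ± 52.8 in A-C, with 97.0 ± 97.2 in M.

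The coding sequences of both carriers are related along most of their length, with 70.5% of 2018 aligned bases identical. They are shown at the first carrier signature, to set the called low-abundance form beside the abundant one, with 15 coding bases on each side. Capitals mark the 18 bases of the signature, from the proline codon to the codon of the basic residue. Positions count from the first coding base of the transcript in the GENCODE M21 annotation, 1036 to 1053 in Slc25a12 and 1045 to 1062 in Slc25a13.
Slc25a12: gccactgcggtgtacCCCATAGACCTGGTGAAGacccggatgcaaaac
Slc25a13: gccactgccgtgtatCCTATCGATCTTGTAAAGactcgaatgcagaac
A signature of this form, with any codon between the fixed ones, was found 3 times in 27 members, 2 times in 12, 1 time in 5 and not at all in 3. Coding lengths ran from 795 to 2031 bases with a median of 954, and Slc25a12 was the longest.

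Slc25a39 and Slc25a40 encode related carriers that bring glutathione into mitochondria. Slc25a39 (chromosome 11, 102402985 to 102407946, minus strand) was the third most abundant member. It measured 210, 261 and 249 in C, rose to 416, 367 and 320 in replicates 6, 9 and 12 of A-C, and stood at 262, 215 and 211 in M. The A-C libraries lay above all 6 others, while C and M overlapped. The change between A-C and C was 0.61 ± 0.16 (limma, adjusted p = 0.0351), a ratio of means of 1.53. Between M and A-C it was -0.68 ± 0.16 with an unadjusted p of 0.00244, which became 0.183 after adjustment and was not called. Leaving out C replicate 2, 3 or 4, A-C replicate 6 or 9, or M replicate 26 ended the A-C call, with adjusted p-values up to 0.119. Endothelial markers were highest in the same group: 5 of 6 were called higher in A-C than in C, against 9.65% of all tested genes. Their summed level was 37.8 to 61.1 in C, 122 to 128 in A-C, with 60.9 to 89.9 in M, and none was at 0. Stellate cell markers had the same order, with sums of 78.7 to 126, 130 to 155 and 93.6 to 107, and 1 of 6 called higher in A-C. The part of these cell types in the Slc25a39 difference was not tested.

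Slc25a40 (chromosome 5, 8422850 to 8454797, plus strand) did not reach the filter, which was set on TPM before scaling, and had 77 to 185 reads per library. After scaling it measured 1.11, 1.07 and 1.03 in C, 0.511, 0.564 and 0.500 in A-C, with 0.781, 0.354 and 0.485 in M. No A-C or M library reached the lowest C library. In a fit of 20358 genes without the filter its log2 change was -0.44 ± 0.11 between A-C and C (limma, adjusted p = 0.0475) and -0.44 ± 0.11 between M and C (adjusted p = 0.0546). The paralogs thus lay on opposite sides of C in A-C, Slc25a39 above it and Slc25a40 below it. The A-C call of Slc25a40 exists only in the fit without the filter.

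Both genes carry the family signature near the start of the coding sequence, at bases 91 to 108 of Slc25a39 and 106 to 123 of Slc25a40, and over the whole coding sequence 59.0% of 989 aligned bases were identical.
Slc25a39: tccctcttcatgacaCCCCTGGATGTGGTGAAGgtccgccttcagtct
Slc25a40: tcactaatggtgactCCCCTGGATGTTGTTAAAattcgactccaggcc
The promoters of the pair are shown because the 2 genes lay on opposite sides of C in A-C. They were taken from RefSeq on GRCm38.p6, 250 bases before to 50 after the start given there, on the gene's own strand. Slc25a39 is chr11:102407468-102407767 (minus) and Slc25a40 is chr5:8422588-8422887 (plus). Capitals mark the GC box (GGGCGG, searched on both strands, so that it also appears as CCGCCC) and the antioxidant response core (TGACNNNGC, both strands).
Slc25a39 promoter: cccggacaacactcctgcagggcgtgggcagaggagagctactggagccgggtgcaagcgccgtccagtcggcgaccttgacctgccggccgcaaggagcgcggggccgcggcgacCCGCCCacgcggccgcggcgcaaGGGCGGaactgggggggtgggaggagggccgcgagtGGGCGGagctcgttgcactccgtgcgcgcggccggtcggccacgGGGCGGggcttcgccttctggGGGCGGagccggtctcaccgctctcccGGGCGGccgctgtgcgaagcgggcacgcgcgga
Slc25a40 promoter: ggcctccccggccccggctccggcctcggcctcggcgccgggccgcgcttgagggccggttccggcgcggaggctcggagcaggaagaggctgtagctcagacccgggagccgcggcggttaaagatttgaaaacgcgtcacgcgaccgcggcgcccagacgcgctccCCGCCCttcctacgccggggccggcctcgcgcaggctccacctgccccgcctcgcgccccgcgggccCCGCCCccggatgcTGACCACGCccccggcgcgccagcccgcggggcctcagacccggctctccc
The Slc25a39 window held 6 GC boxes and the Slc25a40 window 2 and a TGACNNNGC match. A GC box was found in 35.6% of the 32817 promoters of the table and in 38 of the 46 promoters (82.6%) of the 36 members listed there. TGACNNNGC was found in 12.4% of all promoters and in 12 of those 46 (26.1%). The Slc25a39 window lies inside the gene as the deposited table draws it, since the table places its start farther upstream. Matches describe these letters only.

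The iron carriers that complete this group are Slc25a37 and Slc25a28, the mitoferrins. Slc25a37, the form known from developing red cells, was close to level at 10.7 ± 0.884 in C, 9.72 ± 2.51 in A-C, with 10.8 ± 0.828 in M. Slc25a28 measured 12.5 ± 0.401, 10.4 ± 2.33 and 10.6 ± 1.28, and its M libraries lay just below its C libraries, with a log2 change of -0.22 that turned to 0.03 in TPM as deposited. Among 7 genes of glutathione synthesis and iron-sulfur assembly, 1 rose between A-C and C, the glutathione reductase gene Gsr (32.1 ± 6.74 to 49.3 ± 3.77, limma adjusted p = 0.0416). Between M and C, Iscu, the scaffold of iron-sulfur assembly, fell (126 ± 4.11 to 86.3 ± 6.14, adjusted p = 0.0226). Each lay on the same side of C in the other group, just short of a call. Gsr was at 47.9 ± 5.57 in M and Iscu at 95.2 ± 3.68 in A-C (limma, adjusted p = 0.0534 and 0.0516).

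Slc25a45 (chromosome 19, 5877808 to 5885878, plus strand), a member whose substrate is less settled than that of the carriers above, had the widest change in the family. It measured 22.2, 26.2 and 20.8 in C, 16.6, 15.2 and 11.4 in A-C, with 11.4, 8.40 and 6.42 in M. C lay above all other libraries, and the lowest A-C library met the highest M library. The M level was 0.378 times that of C (log2 change -1.33 ± 0.21, limma adjusted p = 0.00876), and the call was kept when each of the 9 libraries was left out in turn, at adjusted p-values up to 0.0488. A change of at least 1 on the log2 scale was seen in 1 of 36 members and in 6.51% of all tested genes. Between A-C and C the log2 change was -0.66 ± 0.21 (adjusted p = 0.0593), and between M and A-C it was -0.68 ± 0.21 (adjusted p = 0.266), neither of them called. The A-C difference was called once M replicate 24 or M replicate 27 was left out. When C replicate 2 and M replicate 26 were left out together, an alternative chosen after seeing the data, the M call ended (adjusted p = 0.0862).

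Slc25a45 is nearest among the members compared with it to Slc25a48, with 61.5% of 852 aligned coding bases identical, and 58.4% of 847 with Slc25a47. Its own first signature, at coding bases 64 to 81, is shown as that of the member with the largest change.
Slc25a45: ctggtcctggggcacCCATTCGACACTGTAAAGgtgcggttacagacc
The RefSeq promoter of Slc25a45, chr19:5877572-5877871 (plus, GRCm38.p6), held a GC box and none of the other motifs searched on both strands: the CCAAT box (CCAAT, in 37.4% of all promoters), the E-box (CACGTG, in 7.15%), the cAMP response element (TGACGTCA, in 1.79%) and the antioxidant response core.
Slc25a45 promoter: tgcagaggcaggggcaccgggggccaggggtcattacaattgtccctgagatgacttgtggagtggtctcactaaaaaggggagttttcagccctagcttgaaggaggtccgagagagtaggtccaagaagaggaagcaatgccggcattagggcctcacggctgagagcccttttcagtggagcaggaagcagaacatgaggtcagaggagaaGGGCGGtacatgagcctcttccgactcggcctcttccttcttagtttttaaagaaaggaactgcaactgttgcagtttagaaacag

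Slc25a47, which is expressed mainly in liver, was the second most abundant member. It measured 397, 509 and 512 in C, 320, 412 and 245 in A-C, with 410, 375 and 359 in M. A-C and C overlapped through A-C replicate 9 and C replicate 2. The log2 change was -0.56 ± 0.21 between A-C and C (limma, adjusted p = 0.0897) and -0.30 ± 0.21 between M and C (adjusted p = 0.322). Its start lies 162 bases from that of Slc25a29 on the other strand of chromosome 12, and Slc25a29, a carrier of basic amino acids, measured between 1.41 and 3.2. Slc25a48 had the widest spread of the tested members within A-C and within M. Slc25a48 ran from 1.61 to 8.14 in A-C and from 1.12 to 7.13 in M, against 3.92 to 4.82 in C, and Slc25a34 from 2.67 to 9.94 in M.

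**Figure D3:**
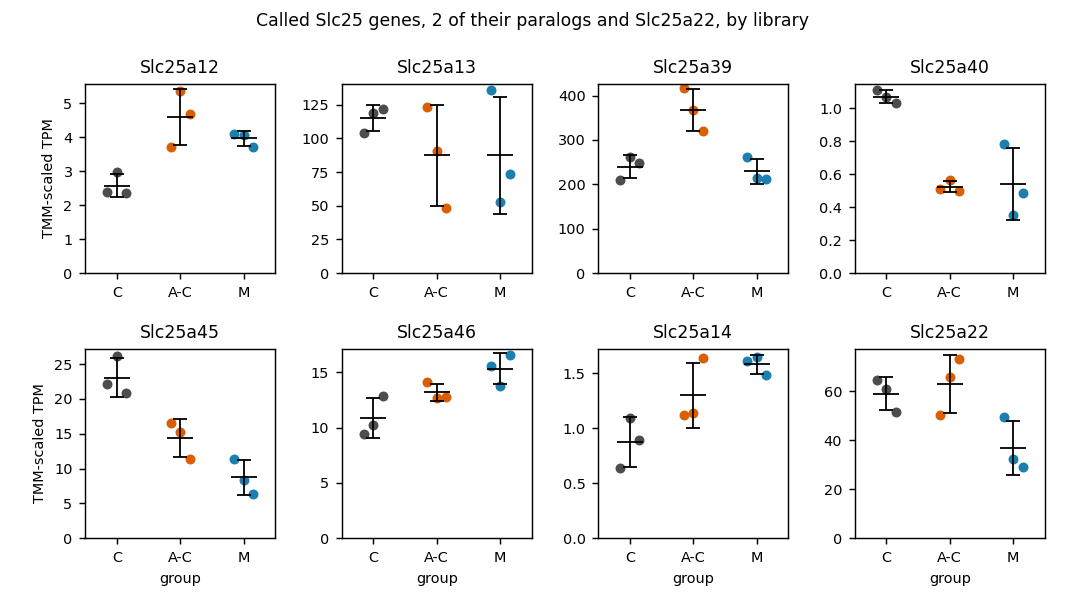
Scaled TPM (vertical axes, from 0) of the members called in a comparison, the paralogs Slc25a13 and Slc25a40, and Slc25a22 in each library of C, A-C and M, with 1 point per library and bars for the mean ± SD of 3 libraries. Slc25a12 in A-C and M and Slc25a39 in A-C lie above every C library, and Slc25a45 in A-C and M lies below every C library.

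The other calls between M and C were Slc25a46 and Slc25a14, both near the threshold. Slc25a46 encodes a protein of the outer membrane linked to mitochondrial fission and lipid handling. It measured 9.47, 10.2 and 12.9 in C and 15.6, 13.8 and 16.6 in M, with A-C between at 14.1, 12.7 and 12.8. The M libraries lay above all C libraries (log2 change 0.47 ± 0.14, limma adjusted p = 0.0492). Slc25a14, related to the uncoupling proteins, measured 0.637, 1.09 and 0.890 in C and 1.61, 1.65 and 1.48 in M, with 1.12, 1.14 and 1.64 in A-C (0.47 ± 0.14 between M and C, adjusted p = 0.0498). It rested on 30 to 101 reads per library and passed the filter through its A-C and M libraries. The Slc25a46 call ended without replicate 2 or 3 of C, replicate 6 or 9 of A-C, or any M library, at adjusted p-values up to 0.156. That of Slc25a14 ended without any library except A-C replicate 12, up to 0.131. In TPM as deposited, Slc25a46 was also called between A-C and C.

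Of the other uncoupling protein-like members, Slc25a30 measured 7.49, 7.73 and 6.15 in C, 8.55, 11.2 and 11.3 in A-C, with 9.90, 7.82 and 8.63 in M. Its A-C and M libraries lay above its C libraries, with a log2 change of 0.48 ± 0.15 in A-C (limma, adjusted p = 0.0569). It was called higher in A-C in TPM as deposited (adjusted p = 0.018) and without A-C replicate 6 (0.032), and in M in TPM as deposited (0.0418). Slc25a27 lay the other way, at 1.98, 1.55 and 1.06 in C and 0.751, 0.852 and 0.317 in M (-0.62 ± 0.21, limma adjusted p = 0.0667). It passed the filter only through C and A-C libraries, where it was higher than in M. Family members that carry other symbols were not called either. Ucp2, the uncoupling protein of many tissues, measured 7.14 ± 1.08 in C, 9.01 ± 1.13 in A-C, with 5.20 ± 0.595 in M. Mtch1, a carrier relative of the outer membrane, measured 14.8 ± 3.08, 22.3 ± 4.69 and 20.3 ± 3.54, and Mtch2 measured 35.7 ± 3.99, 31.0 ± 2.49 and 33.4 ± 1.75.

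The carriers of ADP, ATP and phosphate are the base of the family in liver. Slc25a5, the adenine nucleotide translocase of most non-muscle tissues, was the most abundant member in every library, at 486, 602 and 591 in C, 729, 599 and 580 in A-C, with 654, 568 and 560 in M. Slc25a3, the phosphate carrier, measured 93.2, 106 and 111 in C, 126, 113 and 121 in A-C, with 117, 101 and 104 in M. Its A-C libraries lay above its C libraries, with a log2 change of 0.21 ± 0.13 (limma, adjusted p = 0.28), and it was called only in TPM as deposited. Slc25a4, the muscle form of the translocase, was far lower, at 5.11 ± 0.201 in C, 4.6 ± 0.504 in A-C, with 3.89 ± 0.372 in M, although 77.4% of its 894 coding bases match those of Slc25a5. Its M libraries lay below its C libraries (-0.32 ± 0.12, adjusted p = 0.082). Slc25a31, the form of male germ cells, had no read in any library, which allows up to 0.0496 to 0.0708 TPM per library at 3 reads.

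Carriers that exchange ATP-Mg for phosphate are encoded by 4 members, most of them regulated by calcium. Slc25a23 measured 82.5, 90.8 and 92.1 in C and 83.7, 66.8 and 36.5 in A-C, with 87.6, 60.7 and 77.8 in M. Only A-C replicate 6 reached the C range in A-C (-0.58 ± 0.28, limma adjusted p = 0.173). Slc25a25 measured 36.2, 57.9 and 50.8 in C, 35.5, 38.1 and 32.2 in A-C, with 41.3, 12.9 and 32.4 in M. Its log2 change was -0.84 ± 0.37 between M and C (adjusted p = 0.139), and it was called lower when M replicate 24 was left out. Slc25a24 measured 0.438 to 1.08 over all libraries, and Slc25a41 had no read in any of them.

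Among the carriers of di- and tricarboxylates, none of the 4 was called, and all 4 had negative log2 changes in both comparisons with C (in TPM as deposited Slc25a11 turned positive between M and C). Slc25a1, which exports citrate for cytosolic acetyl-CoA, measured 175, 240 and 202 in C, 185, 148 and 104 in A-C, with 156, 113 and 156 in M. The M libraries lay below every C library, and the log2 change was -0.54 ± 0.24 (limma, adjusted p = 0.139), while A-C overlapped C (-0.52 ± 0.24, adjusted p = 0.149). Slc25a10, the dicarboxylate carrier, measured 92.0, 110 and 106 in C, 115, 101 and 48.5 in A-C, with 122, 54.7 and 63.2 in M. Slc25a11, the oxoglutarate-malate carrier, ran from 53.4 to 68.4 in C, from 35.7 to 63.9 in A-C and from 46.4 to 77.8 in M. Slc25a21, which moves oxoadipate, ran from 5.98 to 7.96, from 3.55 to 7.09 and from 3.40 to 6.03. In a list of 6 genes that make or use citrate and cytosolic acetyl-CoA, 2 fell in A-C and in M, Acly and Fasn. The other 4, among them Cs and Me1, were not called in either. The shares of all tested genes called lower were 7.17% in A-C and 6.77% in M. Acly, ATP citrate lyase, went from 107 ± 9.17 in C to 30.9 ± 14.5 in A-C, with 40.1 ± 15 in M (adjusted p = 0.0147 and 0.0319), and Fasn, fatty acid synthase, from 186 ± 19.1 to 37.6 ± 15.1 and 21.1 ± 3.60 (adjusted p = 0.00354 and 0.00227).

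The acylcarnitine carrier Slc25a20 measured 53.8, 50.4 and 52.3 in C, 62.1, 71.5 and 57.8 in A-C, with 58.2, 54.4 and 49.9 in M. Its A-C libraries lay above its C libraries by 0.28 ± 0.13 on the log2 scale (limma, adjusted p = 0.156), and the difference was called in TPM as deposited. Of 6 other genes of the carnitine shuttle, 4 rose in A-C: the carnitine acetyltransferase Crat (9.95 ± 0.784 to 35.9 ± 8.80, adjusted p = 0.00386), the octanoyltransferase Crot (75.6 ± 21.2 to 209 ± 52.0, adjusted p = 0.00742), the plasma membrane carnitine transporter Slc22a5 (17.7 ± 4.09 to 39.8 ± 10.4, adjusted p = 0.0191) and Cpt2, the inner membrane palmitoyltransferase (106 ± 7.13 to 154 ± 11.9, adjusted p = 0.0269). Crot also rose in M, to 155 ± 7.2 (limma, adjusted p = 0.0225). The shares of all tested genes called higher were 9.65% in A-C and 9.29% in M. In M, Crat, Slc22a5 and Cpt2 were at 14.4 ± 4.03, 29.4 ± 6.31 and 138 ± 10.1, not called (limma, adjusted p = 0.174, 0.0738 and 0.0805). Cpt1a measured 99.8 ± 2.68 in C and 114 ± 20.8 in A-C and was not called.

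Slc25a15, the ornithine carrier of the urea cycle, measured 89.3, 99.7 and 107 in C and 110, 94.9 and 104 in A-C. In M it measured 99.5, 50.7 and 54.7, so that only replicate 24 lay in the C range. The log2 change was -0.59 ± 0.24 between M and C (limma, adjusted p = 0.115) and was called when M replicate 24 was left out. Slc25a2, the second ornithine carrier, lay between 0.149 and 0.916. Of 6 urea cycle genes, Otc, which makes citrulline in the matrix, fell in A-C (315 ± 14 to 134 ± 39.5, adjusted p = 0.00863) and Arg1, which releases urea, fell in M (2299 ± 335 to 1012 ± 172, adjusted p = 0.00781). Arg1 was also lower in A-C, at 1534 ± 71.9, just short of a call (limma, adjusted p = 0.0547).

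Slc25a22, a glutamate carrier, measured 64.6, 60.8 and 51.6 in C, 50.1, 65.7 and 73.2 in A-C, with 49.5, 32.1 and 28.9 in M. Its M libraries lay below all C and A-C libraries. The log2 change was -0.70 ± 0.22 between M and C (limma, adjusted p = 0.062) and -0.78 ± 0.22 between M and A-C (adjusted p = 0.242), and the first was called without A-C replicate 12 or without M replicate 24. Its relative Slc25a18 lay between 0.102 and 0.525. The remaining amino acid carriers overlapped in every comparison: Slc25a44, which carries branched-chain amino acids, ran from 25.9 to 44.3, and Slc25a38, which brings in glycine for haem synthesis, from 15.2 to 19.5.

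None of the 8 tested carriers of nucleotides, vitamins and cofactors was called. Slc25a51, the NAD carrier, measured 72.0, 52.8 and 59.0 in C and 32.1, 48.4 and 35.9 in A-C. Those groups did not overlap (-0.66 ± 0.31, limma adjusted p = 0.167), whereas M spread from 25.7 to 65.6. Slc25a16 was lower in A-C, at 30.8, 28.1 and 27.1, than in C, at 34.2 to 35.6, and than in M, at 32.8 to 39.3, without passing the test (adjusted p = 0.131 and 0.322). Slc25a32, which carries folate or FAD, measured 0.735, 0.731 and 0.610 in C, 1.65, 1.5 and 1.26 in A-C, with 2.49, 0.862 and 1.75 in M. All A-C and M libraries lay above C, and the adjusted p-values were 0.0959 and 0.0654, in a gene that passed the filter only through A-C and M libraries.

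Slc25a42, the CoA carrier, measured 23.4, 23.4 and 19.2 in C, 32.7, 26.5 and 19.9 in A-C, with 29.4, 20.9 and 14.6 in M. Of 6 genes of CoA synthesis, Pank2, a pantothenate kinase gene, rose in A-C and in M (4.41 ± 0.272 to 6.74 ± 0.721 and 6.60 ± 0.570, limma adjusted p = 0.0227 and 0.0287). The pyrimidine nucleotide carrier Slc25a33 ran from 17.3 to 26.7 in C, from 20.7 to 42.6 in A-C and from 23.4 to 51.5 in M, and its relative Slc25a36 from 0.466 to 1.74 over all libraries. The peroxisomal carrier Slc25a17 lay between 17.2 and 34.0, and Slc25a26, which brings in S-adenosylmethionine, between 2.25 and 4.17. Of the 4 tested genes of mitochondrial folate, S-adenosylmethionine use and the start of haem synthesis, none was called in any comparison, and none had an unadjusted p under 0.05.

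The spread inside the groups followed the libraries. In C the median SD of the 36 members on the log2 scale was 0.16, as for all genes. In A-C and M it was 0.26 for the members, against 0.21 and 0.20 for all genes. M replicate 24 was the highest M library for 28 of 36 members (77.8%, against 37.7% of all genes), and A-C replicate 12 was the lowest A-C library for 25 (69.4% against 41.5%). M replicate 24 had the smallest acute phase share of M and A-C replicate 12 the largest of A-C. Members share a library, so these counts describe those 2 libraries, and the part of inflammation in the members' levels was not tested. Neutrophil markers varied alongside, with a summed level of 1.44 to 6.61 in C, 3.89 to 53.5 in A-C, with 4.70 to 56.4 in M, and Ly6g, Cxcr2 and Mpo were under 1 in all libraries. Of the other marker lists, 2 of 6 Kupffer cell genes were called higher in A-C and 1 in M, 1 of 6 stellate cell genes was higher in each with 1 lower in M (Col1a1, 2.20 ± 0.402 to 0.962 ± 0.218), and none of 4 cholangiocyte genes was called. Both tested B cell genes fell in A-C and in M, and 2 of 5 erythroid genes fell in A-C. Of 6 hepatocyte genes, 1 fell in A-C, while 2 fell and 1 rose in M. For comparison, 9.65% of all tested genes were called higher and 7.17% lower in A-C, and 9.29% and 6.77% in M. The part of the B cell, erythroid and other listed cell types in these counts was not tested. Nor was their part in the members' changes. In bulk RNA, fewer cells of a type and less RNA per cell cannot be told apart.

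**Figure D4:**
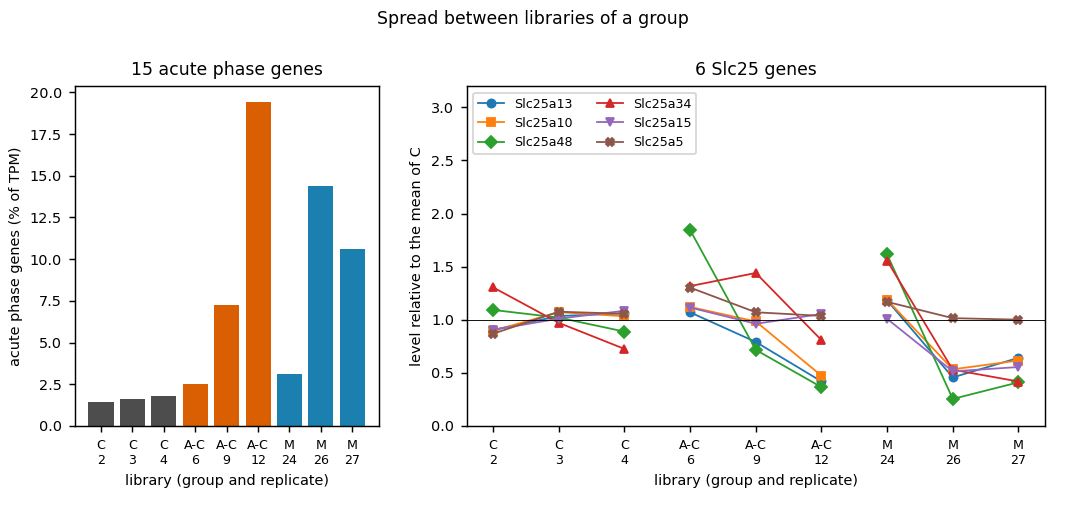
Left, share of TPM taken by 15 acute phase genes (vertical axis, %) in each library; right, level of 6 Slc25 genes relative to their mean in C (vertical axis), with lines that join libraries of the same group only to lead the eye. Within their groups, Slc25a13, Slc25a10 and Slc25a48 are lowest in A-C replicate 12 and M replicate 26, where the acute phase share is 19.4% and 14.4%. Slc25a34 and Slc25a5 are lowest in A-C replicate 12 and M replicate 27, and Slc25a15 in A-C replicate 9 and M replicate 26.

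The machinery that inserts carriers into the inner membrane was measured beside them. Of 10 genes of the TOM and TIM22 import route, 2 rose and 1 fell between A-C and C, and 1 rose and 2 fell between M and C. Of all tested genes, 9.65% were called higher and 7.17% lower in A-C, and 9.29% and 6.77% in M. Timm29, a subunit of the TIM22 complex, measured 12, 13.7 and 19.1 in C and at least 24 in every A-C and M library (0.99 ± 0.23 with limma adjusted p = 0.0236 in A-C, and 1.09 ± 0.23 with 0.0201 in M). Timm9, a chaperone that escorts carriers between the membranes, fell from 22.1 ± 0.748 to 13.8 ± 0.302 and 13.7 ± 0.385 (adjusted p = 0.00708 and 0.00875). The receptor subunit Tomm20 rose in A-C (14.7 ± 2.24 to 23.1 ± 0.698, adjusted p = 0.0193), and Tomm22 fell in M (79.5 ± 4.13 to 60.4 ± 2.38, adjusted p = 0.0485). Tomm20 was at 20.1 ± 1.84 in M and Tomm22 at 66.6 ± 1.6 in A-C, neither called (limma, adjusted p = 0.0606 and 0.15). The 11 tested inner membrane transporters of other families were not called in any comparison by limma, with 1 at an unadjusted p under 0.05 in each. Among them Mpc1 and Mpc2, the subunits of the pyruvate carrier, measured 50.5 ± 3.59 and 77.4 ± 11.3 in C, 61.9 ± 15.7 and 60.4 ± 14.2 in A-C, then 45.4 ± 2.70 and 63.1 ± 3.29 in M. None of the 3 porin genes of the outer membrane was called, with 1, 0 and 1 at an unadjusted p under 0.05 (limma). Over all 11086 tested genes the counts were 3899 between A-C and C, 1277 between M and A-C and 3887 between M and C. Of 6 regulators of mitochondrial biogenesis, Gabpa rose in A-C and M (11 ± 0.358 to 17.6 ± 1.57 and 19.7 ± 2.52, adjusted p = 0.0152 and 0.00981), and Esrra fell in A-C (17.4 ± 1.56 to 7.53 ± 2.56, adjusted p = 0.0237). Esrra was at 10.2 ± 3.88 in M and was not called there (limma, adjusted p = 0.0771). Of the 13 mitochondrially encoded mRNAs, 3 fell in A-C and 0 were called in M by limma, with 8 at an unadjusted p under 0.05 in each comparison with C. Over all tested genes 7.17% were called lower in A-C, and 3899 (A-C) and 3887 (M) of 11086 were under 0.05 unadjusted. Their median log2 change was -0.67 in A-C and -0.65 in M. C replicate 2 had the largest share of these mRNAs, at 27.6% of its TPM.

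The members left are low. Slc25a35 and Slc25a53 lay between 0.120 and 0.641, Slc25a43 had at most 8 reads in a library, and Slc25a54 had none. Annotation overlaps limit a few members, since the use of strand in counting is not given in the sources used here. Slc25a11 overlaps Rnf167 (20.1 to 29.4), Slc25a23 overlaps Crb3 (11.4 to 17.7), Slc25a25 overlaps Naif1 (1.41 to 2.30), Slc25a26 overlaps Lrig1 (3.54 to 21.7) and Slc25a18 overlaps Atp6v1e1 (44.4 to 58.9), each on the opposite strand, so reads of the low members Slc25a18 and Slc25a26 may be partly those of the neighbour.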

How the data were processed

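The authors deposited a table of TPM for 9 mouse liver libraries, made from Trizol RNA and a Novogene library kit per the labels' protocols, on the mm10 build per the submitters' processing notes. Not given in the sources used here are aligner, counting tool, annotation and strand. Of 32248 lines, 31964 gene IDs were kept, 1 line each. TPM times exon length fell within 0.1 of a whole multiple of a library's step for at least 99.965% of values, which gave the reads. TMM factors were computed from these reads (30% of log ratios and 5% of means trimmed). The divisor of each library was its total reads times its TMM factor, over its summed reads per exon length. The divisors, set to a geometric mean of 1, ran from 0.867 to 1.10.

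Genes at 1 deposited TPM or more in 3 libraries were fitted with limma 3.58.1 (R 4.3.3, trend and robust settings) on log2(scaled TPM + 1), all 9 libraries together with 6 residual degrees of freedom, no covariate, and Benjamini-Hochberg correction at 0.05. The procedure was also run on simulated data with the same spread in every group, unlike these libraries, and no result here rests on that run. A floor of 3 reads covers counting error only. Members with a call, the 8 most abundant and a fixed set of liver carriers were described by library, as were members whose groups did not overlap, chosen after their values were seen. From other lists, called genes are named. Members and lists were chosen with earlier results of these data known. The alternatives were other scalings, pseudocounts, filters, fits and left-out libraries. Results of 2 genes are not reported here.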

Additional observations from a re-analysis of the deposited data

How the results depend on the processing

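Over 18 alternatives (17 between M and A-C), no member was called between M and A-C. The count of members higher in A-C than in C, 2 with the main settings, was 6 in TPM as deposited, 1 with no filter on low values, from 0 to 3 when 1 library was left out, and 0 when C replicate 2 and A-C replicate 12 were left out together, an alternative chosen after seeing the data. The count lower in A-C, 0 with the main settings, was 1 with no filter (Slc25a40), 1 when only the 6 libraries compared were fitted (Slc25a45), and from 0 to 1 when 1 library was left out (Slc25a45 without M replicate 24 or 27). The count higher in M than in C, 3, was 5 in TPM as deposited, 0 with no filter, from 0 to 3 with 1 library left out, and 0 without C replicate 2 and M replicate 26 together, also chosen after seeing the data. The count lower in M, 1, ran from 1 to 5 with 1 library left out: 5 without M replicate 24 (Slc25a15, Slc25a21, Slc25a22, Slc25a25 and Slc25a45) and 3 without A-C replicate 12 (Slc25a22, Slc25a27 and Slc25a45). It was 0 without C replicate 2 and M replicate 26 together. Slc25a45 was called between M and C under 17 of 18 alternatives, Slc25a12 under 13 between A-C and C and 9 between M and C, Slc25a39 under 9, Slc25a46 under 7 and Slc25a14 under 6. With every library kept, calls were lost for Slc25a39 and for Slc25a12, Slc25a46 and Slc25a14 in M with no filter, for Slc25a39 and Slc25a46 when only the groups compared were fitted, for Slc25a46 with median-of-ratios scaling, and for Slc25a14 with a pseudocount of 0.1 or without the trend and robust settings. The 37 changes of single members were followed through the alternatives in which the gene passed the filter. Between M and C, Slc25a27 passed it in 12 of 18 and Slc25a32 in 17. The sign turned for Slc25a28 between M and C. Its log2 change was -0.22 with the main settings and 0.03 in TPM as deposited, not called either way. On that scale Slc25a11 between M and C and the members' medians (-0.14 to 0.07 in A-C, -0.17 to 0.10 in M) also turned positive. Members above 0 went from 15 to 20 of 36 in A-C and from 15 to 21 in M. The cause of these shifts was not tested. The share of all genes called was not recorded under the alternatives, so the counts of members called there have no background beside them. Leaving out a library removes residual degrees of freedom, and fits that leave a group with 2 libraries borrow the spread of the others. No paired analysis was possible because the groups share no replicate numbers. Low members rest on few reads, and 3 reads were the floor for those at 0.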
